A study of Mus musculus with 6 samples.

Results

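Metallothioneins and the proteins that move zinc across membranes were followed through 6 genes on expression arrays of mouse muscle RNA: the metallothioneins Mt1, Mt2 and Mt3, the zinc exporter Slc30a1, the zinc importer Slc39a14, and Mtf1, the zinc-sensing transcription factor. They were 6 of the 36983 genes and transcripts with a probe on the array and 6 of the 20870 that could be tested, and 8 probes matched their RefSeq transcripts, 3 of them to Mtf1. The 6 genes were chosen on results already known from these same 6 arrays, in all 3 comparisons of the groups, so their values are given as a description, and no p-value is attached to any of them. Dystrophin-lacking MDX mice drank JJ101 bioceramic water (MDX_JJ101), further MDX mice had tap water (MDX_tap), and C57BL/10 mice, the background strain of MDX, also had tap water (B10_tap). The time on the given water was 10 months in all 3 groups. Total RNA labelled as gastrocnemius, a calf muscle, was hybridised to 1-colour Agilent arrays, 2 per group. The labels used here give neither the sex nor the age of the mice and do not say whether the 2 arrays of a group came from separate mice, so the spread between them may be technical.

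Metallothioneins are small cysteine-rich proteins that bind zinc, copper and cadmium. When free zinc rises, MTF1 enters the nucleus and binds metal response elements, and in mouse cells Mt1, Mt2 and Slc30a1 are classic targets of it. Slc30a1 encodes ZnT1, which carries zinc out through the plasma membrane, and Slc39a14 encodes ZIP14, which brings zinc into the cell and also carries iron and manganese. Mt1 and Mt2 respond to glucocorticoids, interleukin-6 signalling and oxidants as well, ZIP14 is known to be induced by interleukin-6 in liver, and Mt3 is known mainly from brain.

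The tissue label was checked first, since it bears on every value. Of 8 heart muscle markers, 7 were well above background on all 6 arrays, among them Myh6 and Gata4, while Myl7 was above background on 1 array. Of 10 limb muscle markers, none was above background on all 6 arrays. The fast fibre genes Myh4, Myh1 and Actn3 and the satellite cell gene Pax7 were above it on 4 arrays and Myf6 on 3, while the myogenic regulators Myod1, Myog and Myf5 were above it on no array. Myh4, a fast myosin heavy chain, had a mean level of −5.47 in MDX_JJ101, 2.22 in MDX_tap and 2.45 in B10_tap. The heart markers go against the label and the limb markers bear it out only in part, so the RNA is called by its groups alone. All 6 arrays lay on 1 slide: both MDX_JJ101 arrays were in slide row 2 and the other 4 in row 1, and both B10_tap arrays were in columns that held no MDX array, so slide row and JJ101 water cannot be told apart, nor can slide column and strain. The share of spots well above background was 42.5% to 43.8% on MDX_JJ101 arrays, 48.1% to 49.6% on MDX_tap arrays and 51.4% to 51.6% on B10_tap arrays, and with 6 arrays in all that number sets the precision. No spot was saturated. A level here is the log2 of the scanner's processed signal over that array's 75th percentile, so a gene at the percentile has level 0, and levels of different genes come from different probes and are not compared.

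Mt1, Mt2 and Mt3 lie together on chromosome 8 (GRCm38.p6, RefSeq): Mt3 comes first, 18470 bases before Mt2, and 5316 bases separate the end of Mt2 from the start of Mt1. The promoter windows of these 3 genes and of Slc30a1 are printed because they are the members with the metal response element core, and they show how the sites are placed in genes that differed in how they moved. Each runs 5′ to 3′ on the + strand, with 250 bases before and 50 after a RefSeq transcript start. Capitals mark every TGCACNC or TGCGCNC on either strand. For Mt2 and Mt3 the start used is the first base of the gene. The Mt1 and Slc30a1 genes begin at bases 94178883 and 191906697, inside the 250 bases before the start used. Their match counts and positions therefore hold for that start only. The windows are chr8:94178839-94179138 for Mt1, chr8:94172368-94172667 for Mt2, chr8:94152357-94152656 for Mt3 and chr1:191906531-191906830 for Slc30a1.
Mt1: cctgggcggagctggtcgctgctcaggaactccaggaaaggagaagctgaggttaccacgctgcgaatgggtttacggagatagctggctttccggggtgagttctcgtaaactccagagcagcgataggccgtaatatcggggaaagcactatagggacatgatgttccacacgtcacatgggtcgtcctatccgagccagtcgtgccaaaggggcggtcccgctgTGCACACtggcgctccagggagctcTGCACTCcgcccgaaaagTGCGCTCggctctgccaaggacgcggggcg
Mt2: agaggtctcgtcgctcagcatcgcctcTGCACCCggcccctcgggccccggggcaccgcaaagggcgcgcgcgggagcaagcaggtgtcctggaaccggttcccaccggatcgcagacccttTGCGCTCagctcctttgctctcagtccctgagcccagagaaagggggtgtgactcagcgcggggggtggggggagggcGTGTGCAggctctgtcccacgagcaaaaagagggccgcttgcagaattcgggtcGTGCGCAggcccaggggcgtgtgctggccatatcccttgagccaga
Mt3: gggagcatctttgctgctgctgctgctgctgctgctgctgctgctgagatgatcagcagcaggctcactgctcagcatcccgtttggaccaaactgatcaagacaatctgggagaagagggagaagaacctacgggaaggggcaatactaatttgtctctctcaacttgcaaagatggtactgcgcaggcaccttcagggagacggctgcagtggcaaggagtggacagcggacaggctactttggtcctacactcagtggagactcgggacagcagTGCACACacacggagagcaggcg
Slc30a1: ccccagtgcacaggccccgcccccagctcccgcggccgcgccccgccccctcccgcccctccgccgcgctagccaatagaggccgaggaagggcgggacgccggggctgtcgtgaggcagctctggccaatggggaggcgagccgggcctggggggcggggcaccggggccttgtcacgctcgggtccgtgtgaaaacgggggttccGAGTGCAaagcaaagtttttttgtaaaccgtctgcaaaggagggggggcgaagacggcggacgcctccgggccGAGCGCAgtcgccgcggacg
Mt2 held 4 matches, Mt1 held 3, Slc30a1 held 2, Mt3 held 1 and Mtf1 none, and Slc39a14 was not analysed here in this respect. Of 32851 RefSeq promoter windows of the same length, 25.7% held at least 1 match, 7.11% at least 2, 1.97% at least 3 and 0.517% at least 4. The antioxidant response core TGACNNNGC matched once in Mt2 and once in Slc30a1, against 12.4% of all windows with a match, and the STAT element TTCNNNGAA matched in none of the 5 windows, against 8.3% of all. A match is a run of letters, not a shown binding site, other starts of these genes were not searched, and the absence of a match says nothing about the factor.

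**Figure D1:**
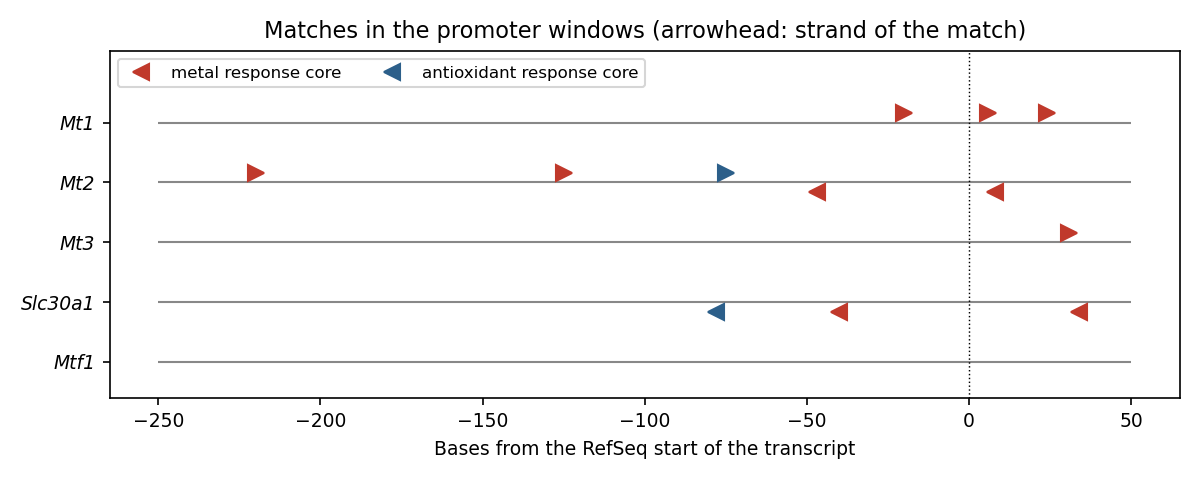
Matches to the metal response core (red) and the antioxidant response core (blue) in the promoter windows of Mt1, Mt2, Mt3, Slc30a1 and Mtf1. The x axis is the distance in bases from the RefSeq transcript start used, which for Mt1 and Slc30a1 is not the first base of the gene. Arrowheads point along the strand of the match, above the line for + and below it for −. Mt2 holds 4 metal response cores and Mt1 holds 3, while Mtf1 holds none.

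Mt1 and Mt2, the metallothioneins that most tissues make, both stood highest on the MDX_JJ101 arrays. The Mt1 probe read 80921 and 100865 units of processed signal on MDX_JJ101 arrays, 49246 and 41262 on MDX_tap arrays and 34871 and 48088 on B10_tap arrays. As log2 levels these were 8.55 and 9.02 in MDX_JJ101, 7.69 and 7.66 in MDX_tap and 7.32 and 7.76 in B10_tap. Both MDX_JJ101 arrays thus lay above the other 4, and both MDX_tap arrays fell between the 2 B10_tap arrays. The mean level was 8.78 ± 0.33 in MDX_JJ101, 7.67 ± 0.019 in MDX_tap and 7.54 ± 0.31 in B10_tap (SD, n = 2 each). MDX_JJ101 was higher than MDX_tap by 1.11 (SE 0.22, 2.16-fold) and higher than B10_tap by 1.24 (SE 0.22, 2.37-fold), whereas MDX_tap and B10_tap differed by 0.13 (SE 0.22), less than the spread between arrays, and by −0.085 to 0.35 with 1 array left out.

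Mt2 separated all 3 groups. Its probe read 23547 and 28488 units on MDX_JJ101 arrays, 15721 and 8512 on MDX_tap arrays and 3845 and 5782 on B10_tap arrays. The log2 levels were 6.77 and 7.19 in MDX_JJ101, 6.04 and 5.38 in MDX_tap and 4.14 and 4.70 in B10_tap. No 2 groups overlapped: every MDX_JJ101 array was above every MDX_tap array, and every MDX_tap array was above every B10_tap array. The group means were 6.98 ± 0.30 in MDX_JJ101, 5.71 ± 0.46 in MDX_tap and 4.42 ± 0.39 in B10_tap (SD, n = 2 each). MDX_JJ101 exceeded MDX_tap by 1.27 (SE 0.31, 2.42-fold) and B10_tap by 2.56 (SE 0.31, 5.89-fold). MDX_tap exceeded B10_tap by 1.29 (SE 0.31, 2.44-fold), but the sizes of the 2 steps of Mt2 rest on 2 MDX_tap arrays that lay apart. Without MDX_tap replicate 1 the step between the waters was 1.60 and that between the strains 0.96, and without MDX_tap replicate 2 they were 0.94 and 1.62. Whether the strain difference of Mt2 exceeds that of Mt1 was not tested.

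Mt3, the metallothionein known mainly from brain, was not highest on the MDX_JJ101 arrays. Its levels were −0.67 and −0.90 in MDX_JJ101, −0.46 and −0.48 in MDX_tap and −0.63 and −0.67 in B10_tap, with means of −0.78 ± 0.16, −0.47 ± 0.017 and −0.65 ± 0.031 in that order of groups (SD, n = 2 each). The MDX_tap arrays were above all others, and MDX_JJ101 and B10_tap overlapped. MDX_JJ101 was lower than MDX_tap, by a difference of −0.32 (SE 0.12, 1.24-fold lower), and differed from B10_tap by −0.14 (SE 0.12), while MDX_tap was above B10_tap by 0.18 (SE 0.12). The MDX_JJ101 differences of Mt3 were small beside those of Mt1 and Mt2, and they depended on the scaling. Against MDX_tap the difference was −0.089 with median centring, −0.14 with normexp and −0.75 with spike-in scaling. Against B10_tap it was 0.26 with median centring and −0.59 with spike-in scaling, so its direction there is not settled. The summed linear level of 6 neuron and astrocyte markers was 40.3 to 44.9 in MDX_JJ101, 30.0 to 34.1 in MDX_tap and 36.8 to 37.3 in B10_tap, with 4 of 6 above background on all arrays, Gfap on 1 and Rbfox3 on none. This sum hides members that went other ways. In MDX_JJ101 against MDX_tap, the 4 above background on all arrays differed by 0.51 for Snap25, 0.061 for Syp, −0.54 for Aqp4 and −0.93 for S100b. The part of these markers in the Mt3 values was not tested.

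**Figure D2:**
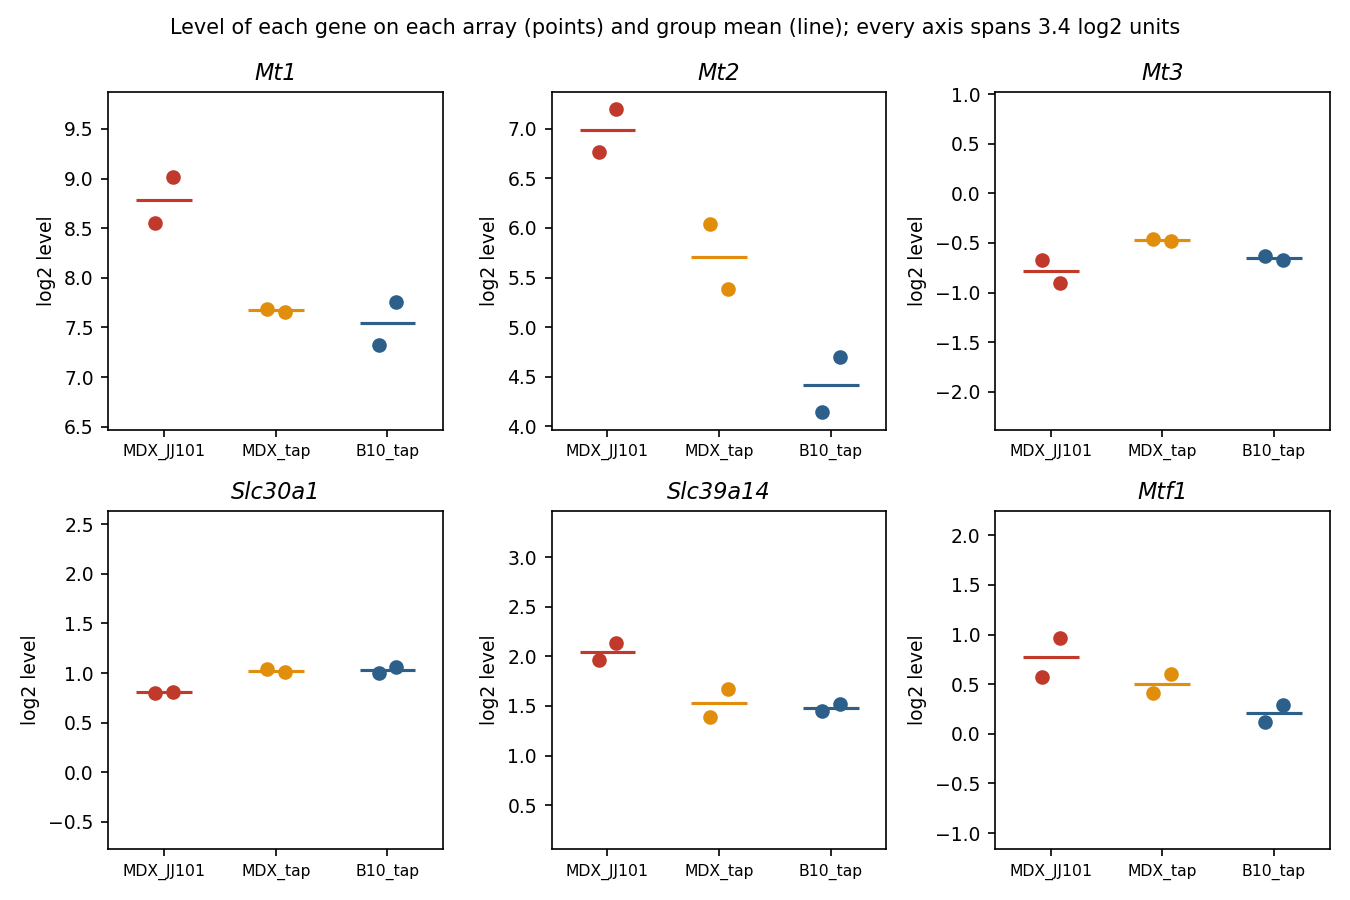
Log2 level of each gene on each array (points) with the group mean (line), MDX_JJ101 left, MDX_tap in the middle and B10_tap right, 2 arrays per group. Each y axis spans the same number of log2 units around its own gene. The MDX_JJ101 points of Mt1, Mt2 and Slc39a14 lie above all other points of their panel, and those of Slc30a1 lie below.

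The exporter was lower and the importer higher on MDX_JJ101 arrays as scaled here, and both differences depended on the scaling. Slc30a1, the ZnT1 exporter, had levels of 0.80 and 0.81 in MDX_JJ101, 1.04 and 1.01 in MDX_tap and 1.00 and 1.06 in B10_tap. Both MDX_JJ101 arrays were below the other 4, and the MDX_tap and B10_tap arrays overlapped. The mean was 0.81 ± 0.0072 in MDX_JJ101, 1.02 ± 0.023 in MDX_tap and 1.03 ± 0.043 in B10_tap (SD, n = 2 each). MDX_JJ101 was lower than MDX_tap, with a difference of −0.22 (SE 0.093, 1.16-fold lower), and equally lower than B10_tap (−0.22, SE 0.093), while MDX_tap and B10_tap differed by −0.0042 (SE 0.093). With median centring Slc30a1 was 0.0075 against MDX_tap and 0.18 against B10_tap, so its direction is not settled. Slc30a1 carries 2 metal response cores in its window, and their part in its levels was not tested.

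Slc39a14, the ZIP14 importer, stood at 1.96 and 2.13 in MDX_JJ101, 1.39 and 1.67 in MDX_tap and 1.45 and 1.52 in B10_tap. Its group means were 2.04 ± 0.12 in MDX_JJ101, 1.53 ± 0.20 in MDX_tap and 1.48 ± 0.047 in B10_tap (SD, n = 2 each). The MDX_JJ101 arrays lay above the rest, and both B10_tap arrays fell between the 2 MDX_tap arrays. MDX_JJ101 was higher than MDX_tap by 0.51 (SE 0.14, 1.43-fold) and higher than B10_tap by 0.56 (SE 0.14, 1.48-fold), and MDX_tap exceeded B10_tap by only 0.048 (SE 0.14). The size of the MDX_JJ101 differences depended on the processing. Against MDX_tap it was 0.28 with normexp background correction and quantile normalization, 0.27 in the authors' own normalized values and 0.08 with spike-in scaling. Against B10_tap it was 0.34 with normexp and 0.10 with spike-in scaling.

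Mtf1, the factor that binds the metal response elements, had levels on its brightest probe of 0.57 and 0.96 in MDX_JJ101, 0.41 and 0.60 in MDX_tap and 0.12 and 0.29 in B10_tap. The means were 0.77 ± 0.27 in MDX_JJ101, 0.50 ± 0.13 in MDX_tap and 0.20 ± 0.12 in B10_tap (SD, n = 2 each). MDX_JJ101 overlapped MDX_tap, and both were above B10_tap on every array. The differences were 0.27 for MDX_JJ101 against MDX_tap, 0.56 for MDX_JJ101 against B10_tap and 0.30 for MDX_tap against B10_tap (SE 0.17 each). Of the other 2 Mtf1 probes, one was not above background on either MDX_JJ101 array and gave −0.26 for MDX_tap against B10_tap, opposite in sign to the brightest probe. The other was above background on no array.

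**Figure D3:**
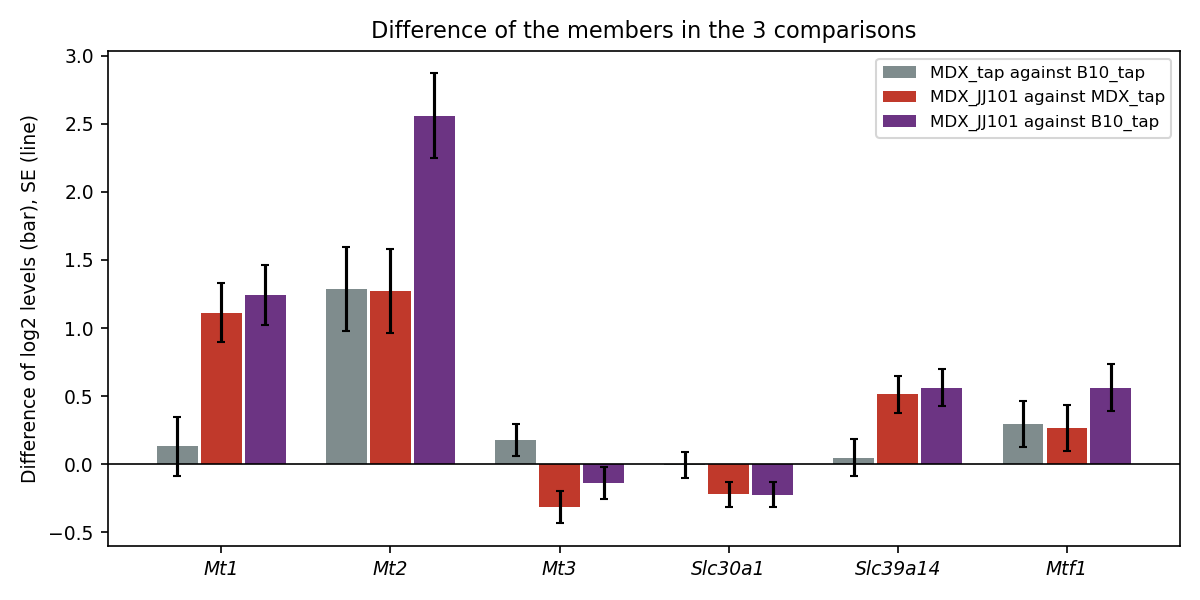
Difference of the group mean log2 levels (bars) with the SE of the fit (lines) for each gene, for MDX_tap against B10_tap (grey), MDX_JJ101 against MDX_tap (red) and MDX_JJ101 against B10_tap (purple). A bar above 0 means higher in the group named first. For the first 2 comparisons the bars of Mt2 are at 1.29 and 1.27 and those of Mt1 at 0.13 and 1.11.

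Read beside the whole array, these differences sat among many. With limma and Benjamini-Hochberg adjustment at 0.05, 36.1% of all genes were called between MDX_JJ101 and MDX_tap, 19.9% higher and 16.1% lower in MDX_JJ101, and 72.7% had groups that did not overlap. For MDX_JJ101 against B10_tap 33.6% were called, 16.2% higher and 17.4% lower, and 75.2% did not overlap. For MDX_tap against B10_tap 0.024% were called and 61.4% did not overlap. Of the 6 chosen genes, 3 were past that threshold in each MDX_JJ101 comparison, all higher. In MDX_tap against B10_tap 0 were (1 at an unadjusted p under 0.05 in limma). The groups did not overlap for 5, 5 and 3 of them in that order of comparisons. Because the genes were chosen on these contrasts, nothing is read from those counts, and they changed with the processing. With spike-in scaling 0 of the 6 passed against MDX_tap (1 at an unadjusted p under 0.05 in limma) and 1 against B10_tap. With normexp and in the authors' table Slc39a14 no longer passed in either comparison, and with no filter it did not pass against MDX_tap. Against MDX_tap, 2 passed with a replicate block, and 1 passed when these 2 groups alone were fitted. Without either MDX_tap array, or without MDX_JJ101 replicate 2, 0 of the 6 passed against MDX_tap (2 or 3 at an unadjusted p under 0.05 in limma), and without either B10_tap array 1 did. Against B10_tap 0 passed without either B10_tap array (3 or 4 at an unadjusted p under 0.05 in limma). The median difference of the 6 was 0.39 for MDX_JJ101 against MDX_tap, 0.56 for MDX_JJ101 against B10_tap and 0.16 for MDX_tap against B10_tap, beside 0.00082, −0.0065 and −0.06 over all genes. The 3 comparisons share arrays, so they are not independent of each other.

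How the arrays were scaled moved all genes together. Scaling by the spiked-in control RNAs moved the median of all genes to −0.43 for MDX_JJ101 against MDX_tap and to −0.47 against B10_tap, and centring each array on its median moved them to 0.23 and 0.39. Mt1 and Mt2 were higher in MDX_JJ101 than in MDX_tap under both, by 0.68 and 0.84 with spike-in scaling, with no overlap of arrays. With that scaling, however, 0 of the 6 genes passed the threshold against MDX_tap. Slc39a14 was 0.08 with spike-in scaling, with overlapping arrays, and Mtf1 turned to −0.17, while Slc30a1 became 0.0075 with median centring. Spike-in scaling also moved the direction of the calls over all genes: 81 of 3796 called were higher in MDX_JJ101 than in MDX_tap and 105 of 4459 higher than in B10_tap, whereas with median centring 5692 of 7590 and 8457 of 10102 were. With slide column as a block, no gene was called for MDX_JJ101 against MDX_tap (8858 at an unadjusted p under 0.05 in limma), and 0 of the 6 passed (3 at an unadjusted p under 0.05). The differences of the 6 genes were the same as without the block, 1.11 for Mt1 and 1.27 for Mt2. A block leaves less from which to estimate the spread between arrays.

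**Figure D4:**
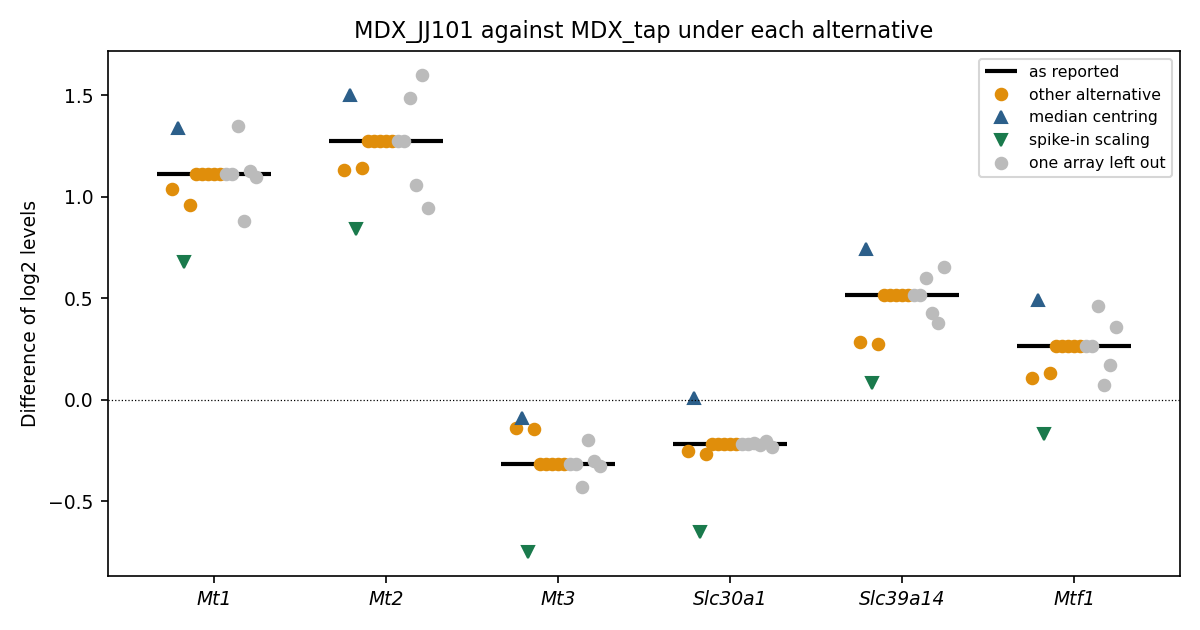
Difference of the log2 levels of MDX_JJ101 and MDX_tap for each gene as reported (black line), under median centring (blue triangles), spike-in scaling (green triangles), other processing (orange) and with each array left out (grey). Mt1 and Mt2 stay above 0 at every point shown, between 0.68 and 1.35 and between 0.84 and 1.60, while Slc30a1 and Mtf1 have points on both sides of 0.

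RNA of marker genes of other cells also differed between the groups. The summed linear level of the 8 macrophage markers on the array, all above background on every array, was 55.0 to 71.1 in MDX_JJ101, 89.9 to 126 in MDX_tap and 57.7 to 61.5 in B10_tap, and that of 6 fibroblast markers was 284 to 422, 710 to 771 and 462 to 483 in that order. These sums hide members that went other ways: against B10_tap, Lgals3 was higher in MDX_JJ101 by 1.15 and Gpnmb by 0.83 among macrophage markers, and Col1a1 by 1.12, while the fibroblast markers Dcn and Lum differed by −0.72 and −1.10. The 4 endothelium markers, all above background on every array, summed to 23.3 to 26.2 in MDX_JJ101, 34.7 to 36.9 in MDX_tap and 41.4 to 43.2 in B10_tap, with no overlap between groups. Of 6 liver markers, 3 were above background on all arrays and Alb on 2, and their summed level was 6.64 to 8.77 in MDX_JJ101, 6.34 to 7.05 in MDX_tap and 9.93 to 20.5 in B10_tap. The 8 heart muscle markers summed to 3732 to 4014 in MDX_JJ101, 3265 to 3442 in MDX_tap and 3415 to 3481 in B10_tap. The 10 limb muscle markers summed to 0.285 to 0.327 in MDX_JJ101, 2.37 to 13.6 in MDX_tap and 5.88 to 7.41 in B10_tap. Mt2 was highest where the endothelium sum was lowest and lowest where it was highest. Mt1 and Mt2 were highest where the limb muscle sum was lowest and the macrophage and fibroblast sums were below those of MDX_tap. Such sums give most weight to the brightest genes, among them Myh4, Dcn and Kdr, and do not stand for whole cell types. In MDX_JJ101 against MDX_tap, Dcn differed by −1.25 but Col1a1 by −0.18, and Kdr by −0.75 but Tie1 by −0.026. Of the 10 limb muscle markers, 5 were above background on no array. The part of any of these lists in the metallothionein values was not tested. In such bulk RNA, fewer cells of a type and less RNA per cell cannot be told apart.

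The remaining genes of both transporter families were counted whole, not picked for how they moved. Of 22 further SLC30 and SLC39 genes, all were on the array and 16 were tested, since Slc30a3, Slc30a8, Slc30a10, Slc39a5, Slc39a9 and Slc39a12 did not pass the filter on dim probes, nor did the skin metallothionein Mt4. Between MDX_JJ101 and MDX_tap 4 rose and 2 fell (37.5% called, beside 36.1% of all genes), with a median difference of 0.10. With spike-in scaling 2 were called and 0 of them were higher, and with median centring 7 were called and 6 of them were higher. Between MDX_JJ101 and B10_tap 5 rose and 3 fell (50% called, beside 33.6%), with a median of 0.26. With spike-in scaling 3 were called, 0 of them higher, and the medians turned to −0.32 for the exporters and −0.15 for the importers, while with median centring 9 were called, all higher. The directions of these calls are therefore set in part by the scaling. In MDX_tap against B10_tap 0 of 16 passed in limma (2 at an unadjusted p under 0.05, beside 4383 of 20870 genes). The median was 0.093, and Slc39a6 came nearest at 0.61 (limma adjusted p = 0.103). The first share is close to that of all genes, and neither share was tested against it.

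Slc39a7, which encodes the ZIP7 carrier that releases zinc out of the endoplasmic reticulum, rose in both comparisons. Its levels were 5.46 and 5.60 in MDX_JJ101, 4.99 and 4.99 in MDX_tap and 4.94 and 4.92 in B10_tap, with no overlap between MDX_JJ101 and the rest. MDX_JJ101 exceeded MDX_tap by 0.55 (limma adjusted p = 0.0176) and B10_tap by 0.60 (limma adjusted p = 0.0158). Slc39a13, the Golgi and vesicle carrier ZIP13 that connective tissue needs, rose by 0.46 against MDX_tap (limma adjusted p = 0.0252) and by 0.64 against B10_tap (limma adjusted p = 0.0146), and Slc39a3 rose by 0.51 (limma adjusted p = 0.0201) and 0.39 (limma adjusted p = 0.0388). Slc30a9 rose against MDX_tap alone among the tests passed, by 0.51 (limma adjusted p = 0.0295). Slc30a6 and Slc39a11 passed against B10_tap, by 0.57 (limma adjusted p = 0.0177) and 0.68 (limma adjusted p = 0.0320). All of these rises were smaller under spike-in scaling, between 0.028 and 0.22, except that Slc39a3 turned to −0.071 against B10_tap.

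Slc39a4, the importer known for zinc uptake in the gut, fell in both comparisons. Its levels were −2.79 and −2.77 in MDX_JJ101, −1.89 and −2.13 in MDX_tap and −2.08 and −1.998 in B10_tap, and the MDX_JJ101 arrays lay below the others. The differences were −0.77 against MDX_tap (limma adjusted p = 0.0139) and −0.74 against B10_tap (limma adjusted p = 0.0149), and both were negative under spike-in scaling and median centring too. Slc30a7 fell against MDX_tap by 0.43 (limma adjusted p = 0.0381). Slc39a8, a sister gene of Slc39a14 whose ZIP8 protein also carries manganese, fell by 0.92 against B10_tap (limma adjusted p = 0.0375), opposite in sign to Slc39a14. Slc39a2 was not well above background on either MDX_JJ101 array and was at least 1.58-fold lower than in B10_tap (limma adjusted p = 0.0306), the bound setting the B10_tap mean against, per MDX_JJ101 array, the higher of the probe's own signal and the lowest signal well above background. Leaving out arrays ended these calls in part: without either MDX_tap array 0 of 16 were called against MDX_tap (7 without replicate 1 and 6 without replicate 2 at an unadjusted p under 0.05 in limma), without either B10_tap array 2 were, and without MDX_JJ101 replicate 2 only 1 was. Against B10_tap, 0 were called without either B10_tap array (7 at an unadjusted p under 0.05 in limma each time) and 5 without either MDX_JJ101 array.

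**Figure D5:**
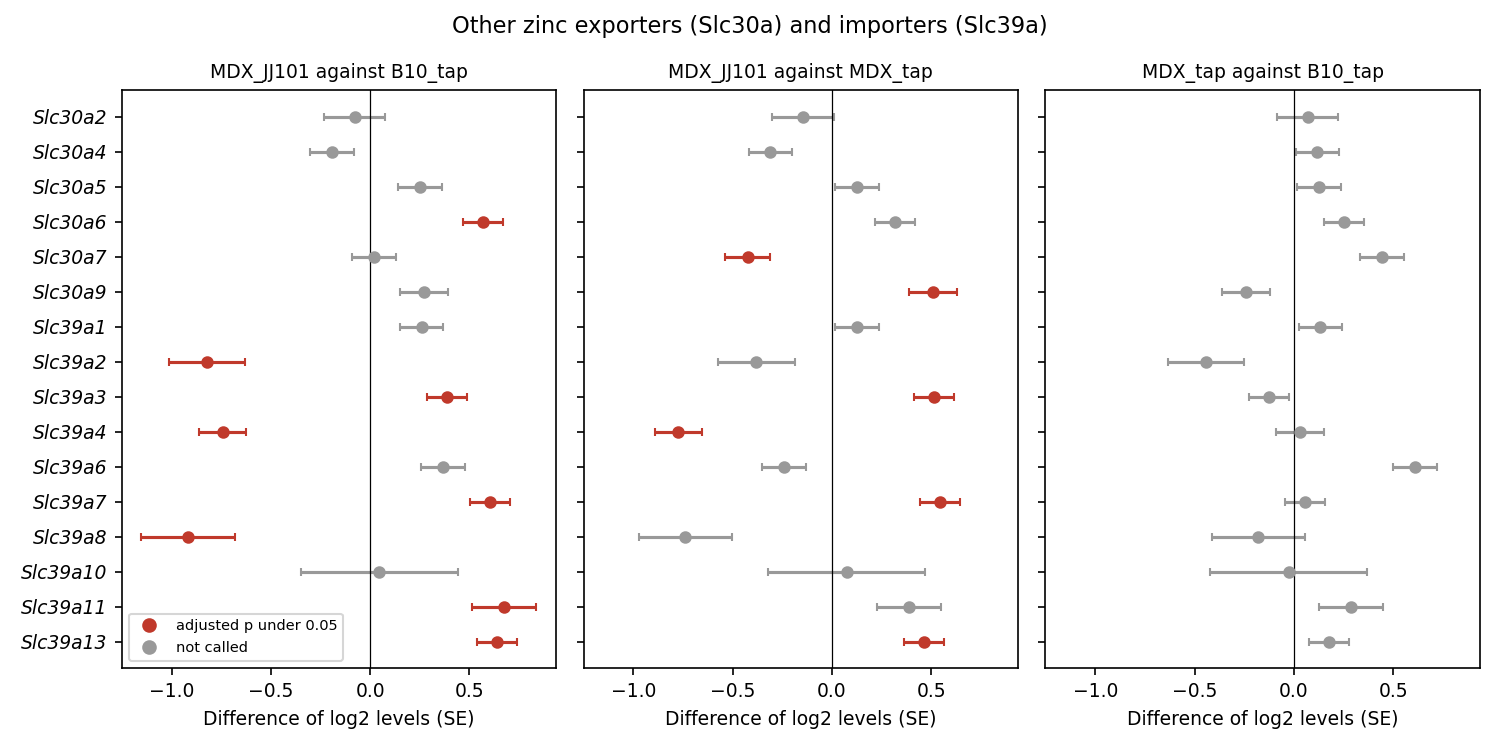
Difference of log2 levels with its SE (lines) for the 16 tested zinc exporters (Slc30a) and importers (Slc39a) outside the chosen genes, for MDX_JJ101 against B10_tap (left), MDX_JJ101 against MDX_tap (middle) and MDX_tap against B10_tap (right). Red points have a limma adjusted p under 0.05. Slc39a7, Slc39a13 and Slc39a3 lie right of 0 and Slc39a4 left of 0 in both MDX_JJ101 panels, and no point is red in the right panel. Slc39a2 and Slc30a2 were not well above background on either MDX_JJ101 array. Their points in the MDX_JJ101 panels are measured means that only bound the difference.

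Genes of the other routes that are known to act on Mt1 and Mt2 were counted from lists written with earlier results of these arrays known. Of 13 tested glucocorticoid response genes, 6 rose and none fell between MDX_JJ101 and B10_tap (beside 33.6% of all genes called, 16.2% higher), with a median difference of 0.53, which was 0.074 with spike-in scaling. The 4 with the smallest p were Fkbp5, a chaperone partner of the glucocorticoid receptor, at 2.02 (limma adjusted p = 0.00897), the transcription factor Cebpd at 0.94 (limma adjusted p = 0.0136), the lipase inhibitor Angptl4 at 2.71 (limma adjusted p = 0.0147) and the transcription factor Zbtb16 at 2.19 (limma adjusted p = 0.0180). Against MDX_tap 3 rose and 2 fell (beside 36.1% of all genes called, 19.9% higher and 16.1% lower). The median was −0.096 (−0.53 with spike-in scaling). Fkbp5 rose by 0.99 (limma adjusted p = 0.0209), Klf9 by 0.49 (limma adjusted p = 0.0283) and Zbtb16 by 2.56 (limma adjusted p = 0.0139). Errfi1 was lower by a difference of −1.04 (limma adjusted p = 0.0130). Fkbp5 and Zbtb16 kept their sign under spike-in scaling in both comparisons.

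Of 15 interleukin-6 and acute phase genes, 6 rose and none fell between MDX_JJ101 and B10_tap (beside 33.6% of all genes called, 16.2% higher), with a median of 0.31 that turned to −0.15 with spike-in scaling. The transcription factor Cebpb rose by 1.59 (limma adjusted p = 0.0105), the protease inhibitor Serpina3n by 1.79 (limma adjusted p = 0.0116) and Stat3, which carries the interleukin-6 signal to the nucleus, by 0.64 (limma adjusted p = 0.0156), and Cebpd belongs to this list too. Against MDX_tap the direction was mixed, with 3 risen and 4 fallen (beside 36.1% of all genes called) and a median of −0.30 (−0.74 with spike-in scaling). Among the 4 that fell was Il6 itself (limma adjusted p = 0.0446), well above background on neither MDX_JJ101 array. It was at least 2.22-fold lower, with the bound set as for Slc39a2, and its MDX_tap levels lay apart, at −0.90 and −3.42. Cebpb rose by 0.91 (limma adjusted p = 0.0244) and the shared receptor subunit Il6st by 0.55 (limma adjusted p = 0.0254), while the receptor Il6ra was lower by a difference of −0.49 (limma adjusted p = 0.0275) and the kinase Jak2 by one of −0.50 (limma adjusted p = 0.0314). Of 11 oxidant and metal stress genes, 2 rose against B10_tap (Gsr and Txnrd1, median 0.24, beside 33.6% of all genes called), and against MDX_tap 3 rose and 2 fell (median 0.34, beside 36.1%). Both medians turned with spike-in scaling, to −0.22 and −0.098. Against MDX_tap Keap1, which holds the oxidant-sensing factor Nfe2l2 in check, rose by 0.61 (limma adjusted p = 0.0167) and Nfe2l2 was lower by a difference of −0.54 (limma adjusted p = 0.0182).

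In MDX_tap against B10_tap, none of these 3 lists had a gene past the threshold in limma, but their medians were 0.67 for the glucocorticoid genes, 0.64 for the interleukin-6 genes and 0.086 for the oxidant genes, beside −0.06 over all genes. At an unadjusted p under 0.05 there were 7 of 13, 9 of 15 and 3 of 11 in that order, beside 4383 of 20870 genes. In the same comparison the Mt2 arrays did not overlap, as for 61.4% of all genes, and those of Mt1 did. The part of these lists in the Mt1 and Mt2 values was not tested.

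Over the 6 arrays, which are 3 groups of 2 and not 6 independent points, some of the 15 pairs among the 6 genes ran close and others did not. Pearson's r was 0.94 for Mt1 with Slc39a14, 0.89 for Mt1 with Mt2, −0.89 for Mt1 with Slc30a1 and −0.93 for Slc30a1 with Slc39a14. It was −0.42 for Mt2 with Mt3, −0.52 for Mt3 with Mtf1 and 0.68 for Mt3 with Slc30a1. Among 2531 genes above background on all arrays and with a range of at least 1, those most like Mt1 were Casz1 (r = 0.999), Golga3 (0.995), R3hdm2 (0.994), Alkbh5 (0.990) and Zfp777 (0.989). Those most like Mt2 were Capn9 (0.992), Myh7 (0.988), Tuba1c (0.983), Depp1 (0.983) and Phc1 (0.979). Casz1 averaged 2.14 in MDX_JJ101, 0.99 in MDX_tap and 0.89 in B10_tap, the same shape as Mt1. Myh7, the slow myosin heavy chain that also marks stressed heart muscle in rodents, averaged 6.89 in MDX_JJ101, 6.22 in MDX_tap and 5.49 in B10_tap, stepping through the groups as Mt2 did.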

How the data were processed

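Total RNA was measured on 6 Agilent 1-colour arrays, 2 per group, with groups and replicate numbers taken from the labels. The authors deposited scanner output (Agilent Feature Extraction, version 11.5.1.1 in the submitters' processing notes) with spot intensity already background-subtracted and spatially detrended, per the file headers, and a table of normalized log2 values. That deposited log2 table was used only as an alternative. Each array's processed signal was divided by its 75th percentile over non-control spots and log2 was taken. A probe was kept where 1 group or more had it well above background on each of its arrays (27260 of 55681 probes), and the brightest probe stood for a gene. Of 20870 genes and transcripts tested, 13953 had a symbol, through RefSeq accessions of GRCm38.p6. limma 3.58.1 (R 4.3.3) fitted all 3 groups together, two-sided, with Benjamini-Hochberg adjustment and a threshold of 0.05; p-values measure only the spread between these arrays. The members and all gene lists were chosen with earlier results of these data known. Named genes were the 6 members, every called SLC30 and SLC39 gene, up to 4 of each other list by smallest p, and the 5 genes most like Mt1 and Mt2. Beyond this rule, marker genes are named for the tissue check, Slc39a6 and the untested transporters to account for that family, and Il6 as the ligand of its list. Alternatives were normexp with an offset of 50 and quantile normalization (on median spot signals, since mean signals were not used here), median centring, spike-in scaling, the deposited table, no filter, every probe, fits of 2 groups, replicate and slide-column blocks, and leaving out each array. The fit was tested on simulated data. Promoters came from the RefSeq table of GRCm38.p6.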

Additional observations from a re-analysis of the deposited data

How the results depend on the processing

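With 2 arrays per group, counts of called genes depended on the setting. For MDX_JJ101 against MDX_tap (7530 genes) they were 3796 with spike-in scaling, 13640 with no filter, 3249 with only the 2 groups compared, 0 with slide column as a block (8858 at an unadjusted p under 0.05 in limma) and 48 to 7701 with 1 array left out. For MDX_JJ101 against B10_tap (7009) they were 4459 with spike-in scaling, 14092 with no filter and 76 to 6908 with 1 array left out. For MDX_tap against B10_tap (5) they were 396 with normexp, 285 with median centring, 415 with spike-in scaling, 337 in the authors' table, 0 with no filter (5113 at an unadjusted p under 0.05 in limma), 9 with every probe, 125 with only the 2 groups and 0 to 125 with 1 array left out. Of the other zinc transporters, 6 were called against MDX_tap, but 2 with spike-in scaling, 11 with no filter, 2 with only the 2 groups, 0 with slide column as a block (8 at an unadjusted p under 0.05 in limma) and 0 to 5 with 1 array left out. Against B10_tap 8 were, but 5 with normexp, 3 with spike-in scaling, 14 with no filter and 0 to 6 with 1 array left out, and for MDX_tap against B10_tap normexp called 1 in place of 0. The counts of 11 and 14 with no filter ran over all 22 transporters. Among the 16 tested here, no filter called 6 and 8, the numbers reported. The same-numbered arrays' deviations correlated at 0.16, −0.064 and −0.031, so the numbers were not shown to pair the samples, and with a replicate block 6518, 5864 and 4 genes were called. Signs turned for Mt3 against B10_tap with median centring (0.26), Slc30a1 with median centring (0.18 against B10_tap and 0.0075 against MDX_tap) and Mtf1 against MDX_tap with spike-in scaling (−0.17). For MDX_tap against B10_tap, where the reported values were near 0, signs also turned for Mt1 without B10_tap replicate 1 (−0.085), Slc39a14 without MDX_tap replicate 2 (−0.090) and Slc30a1 with median centring (0.17), without B10_tap replicate 2 (0.026) and without MDX_tap replicate 2 (0.012). The cause of these changes was not tested, except for 3 that follow from the settings. No filter tests more genes, a left-out array leaves fewer samples, and a block leaves less from which to estimate the spread. Of the alternative values of the 6 genes, 68 of 90 for MDX_JJ101 against MDX_tap, 60 of 84 for MDX_JJ101 against B10_tap and 77 of 84 for MDX_tap against B10_tap lay within 1 residual SD of the value reported. Signal over background limits Mtf1, where 1 of 3 probes was above it on all arrays.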

Other observations

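Copper and iron genes were counted in the same fit, from lists written with earlier results of these arrays known. Of 10 tested copper genes, 3 rose and none fell in MDX_JJ101 against both MDX_tap and B10_tap, beside 36.1% and 33.6% of all genes called, with median differences of 0.29 and 0.25 that turned to −0.15 and −0.21 with spike-in scaling. Sco2, which delivers copper to cytochrome oxidase, rose by 0.70 against MDX_tap (limma adjusted p = 0.0129) and by 0.67 against B10_tap (limma adjusted p = 0.0119). The copper importer Slc31a1 rose by 0.44 and 0.45, and its relative Slc31a2 by 0.41 and 0.49, in that order. Under spike-in scaling Slc31a1 was 0.0032 and −0.013 and Slc31a2 was −0.026 and 0.026. Of 12 tested iron genes, 3 rose and 1 fell against MDX_tap (beside 36.1% of all genes called), with a median of 0.035 (−0.40 with spike-in scaling). Hjv, the hemojuvelin co-receptor known from muscle, rose by 1.21 (limma adjusted p = 0.0128), the iron importer Slc11a2 by 0.61 (limma adjusted p = 0.0146) and the mitochondrial iron carrier Slc25a28 by 0.76 (limma adjusted p = 0.0369), and transferrin, Trf, was lower by a difference of −0.98 (limma adjusted p = 0.0160). Against B10_tap, Hjv, Slc11a2 and Aco1 rose by 0.57, 0.60 and 0.74 (beside 33.6% of all genes called). The list median was 0.22 (−0.24 with spike-in scaling). In MDX_tap against B10_tap, 0 genes of either list passed in limma. At an unadjusted p under 0.05 in limma there were 1 copper and 4 iron genes, beside 4383 of 20870 genes.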
